A study of Mus musculus with 12 samples.

Results

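Semaphorins, plexins, neuropilins, slits, robos, netrins and the netrin receptors form the classical guidance families of ligands and receptors, and their RNA was followed here in mouse hearts injured as neonates. Genes were taken by symbol, and 47 of the 46983 symbols in each deposited table matched. They were 20 semaphorins, 9 plexins, 2 neuropilins, 3 slits, 4 robos, 3 netrins and 6 netrin receptors (Dcc, Neo1 and Unc5a to Unc5d). RNA sequencing was done on a non-cardiomyocyte (NonCM) and a cardiomyocyte (CM) fraction of the heart, with 3 libraries for each of 4 groups. The groups were Wls fl/fl NonCM, control NonCM, Wls fl/fl CM and control CM, all of strain BL6/C57. Both genotypes carried the MCM/+ allele (MerCreMer, a Cre recombinase activated by tamoxifen), and Wls fl/fl hearts also carried floxed Wls, whose product Wntless brings Wnt proteins to the cell surface for release. Every mouse received 3 tamoxifen doses between postnatal days 1 and 3 and was infarcted at postnatal day 2. Tissue was taken 2 weeks after surgery, although the labels call the cells adult. The labels do not name the promoter that drives the Cre, and controls received the same Cre, tamoxifen and infarction, so an uninjured or Cre-free heart has no place in these comparisons.

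Semaphorins are secreted or membrane-bound ligands whose signal passes through plexins, and most class 3 semaphorins also need a neuropilin to bind. Secreted slits bind robo receptors, and netrins bind Dcc, neogenin (Neo1) and the Unc5 receptors, which together steer axons, migrating cells and vessels toward or away from a source. In the developing heart Sema3c takes part in septation of the outflow tract, Sema3d in the patterning of pulmonary veins, and Sema3a in the pattern of sympathetic nerves.

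Sema3c, Sema3d and Slit3 rose together in the NonCM fraction of Wls fl/fl hearts, and their promoters are shown so that their base composition can be seen beside the values. Each window runs from 250 bases before to 50 bases after the start site that RefSeq gives on GRCm38.p6, is written 5′ to 3′ on the gene's own strand, and has CpG dinucleotides in capitals. The windows lie at chr5:17574566-17574865 for Sema3c, chr5:12382916-12383215 for Sema3d and chr11:35121206-35121505 for Slit3, all on the plus strand.
Sema3c: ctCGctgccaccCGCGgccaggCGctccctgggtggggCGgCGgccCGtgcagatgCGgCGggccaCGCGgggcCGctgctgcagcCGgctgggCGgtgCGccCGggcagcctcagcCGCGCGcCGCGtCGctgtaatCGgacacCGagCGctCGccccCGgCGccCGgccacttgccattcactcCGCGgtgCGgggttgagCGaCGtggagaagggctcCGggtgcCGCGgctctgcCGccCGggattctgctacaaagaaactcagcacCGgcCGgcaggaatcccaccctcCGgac
Sema3d: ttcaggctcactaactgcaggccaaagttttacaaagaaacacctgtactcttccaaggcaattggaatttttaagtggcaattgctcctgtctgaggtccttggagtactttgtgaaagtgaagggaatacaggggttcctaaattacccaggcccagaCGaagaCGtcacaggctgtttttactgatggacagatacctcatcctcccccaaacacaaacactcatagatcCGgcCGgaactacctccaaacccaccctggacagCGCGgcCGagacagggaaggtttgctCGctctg
Slit3: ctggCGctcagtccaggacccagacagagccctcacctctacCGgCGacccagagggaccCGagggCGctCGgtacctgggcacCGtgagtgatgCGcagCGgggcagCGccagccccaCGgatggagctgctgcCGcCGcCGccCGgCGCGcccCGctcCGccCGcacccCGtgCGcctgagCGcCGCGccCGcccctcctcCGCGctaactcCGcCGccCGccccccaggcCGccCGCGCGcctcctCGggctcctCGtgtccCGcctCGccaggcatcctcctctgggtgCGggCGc
Sema3c and Slit3 have start sites dense in CpG, with 42 and 41 of these dinucleotides in 300 bases, more than 96.9% and 96.5% of the 32544 promoters in the RefSeq table, whose median was 7. The Sema3d window held 8, more than 51.1% of promoters, so at these start sites the 3 genes do not share this feature. GENCODE M21 starts Sema3c at 17574281 and Sema3d at 12383385, outside these windows, so the counts rest on the RefSeq start sites. GC content was 75.7% for Sema3c, 49.7% for Sema3d and 78.3% for Slit3, against a median of 53%. On either strand, none of the 3 windows held the letters of a TEAD motif (GGAATG, in 14.6% of all promoters), an AP-1 motif (TGANTCA, 7.79%), a TCF/LEF motif (CTTTGAT, 3.73%), a GATA motif (AGATAA, 11.2%) or a TATA box (TATAAA, 13.6%). The letters CANNTG of an E-box, found in 72.3% of promoters, occurred 2 times in Sema3c, 3 times in Sema3d and 0 times in Slit3, overlapping none of the other motifs searched. Robo2, the fourth gene called, has 3 start sites in the table and is not printed. Its windows held 9, 5 and 17 CpG. The first and second, at chr16:75447244-75447543 and chr16:75092721-75093020, lie outside the GENCODE M21 span of Robo2, chr16:73891839-74411825. The window of the second held 1 TEAD and 1 GATA match, the other two held no match but the E-box, and each of the 3 held 1 E-box.

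The deposited values are normalized read counts, which are reads per gene divided by a library size factor within the table of each fraction. Libraries held from 1160146 to 10281214 reads, and the shallowest, NonCM control replicate 1, counted 1 read as a value of 5.54. In every group, a weighted mix of replicates 1 and 2 came close to replicate 3, with mean squared residuals between 0.9988 and 1.041 times the counting variance. Replicates 1 and 2 differed by 1.77 to 2.46 times that variance. The largest residuals were dropped before each mean, and the mix used the weight that fitted best. Both lower the figure, so counting noise alone would give less than 1. The labels list replicate 3 as a sample of its own, so all 3 libraries entered the tests, and calls are also given from replicates 1 and 2 alone. Wls itself averaged 80.9 ± 20.49 in Wls fl/fl CM and 218 ± 22.1 in control CM (SD, n = 3 each), a log2 change of -1.45 (SE 0.17, limma adjusted p = 0.00389, 0.0527 without control replicate 3, and 0.0896 on replicates 1 and 2 alone). In NonCM it averaged 332 ± 21.4 in Wls fl/fl and 403 ± 26.9 in control hearts, a log2 change of -0.28 (SE 0.08, limma adjusted p = 0.0831, edgeR 0.0333, DESeq2 0.227). The NonCM fraction still held much cardiomyocyte RNA, since 14 cardiomyocyte markers summed to 7.48% of reads in control NonCM and 10.99% in control CM. The 10 fibroblast markers summed to 0.938% in control NonCM and 0.111% in control CM. The CM fraction held vascular RNA too. Endothelial markers summed to 0.1605% in control NonCM and 0.1169% in control CM, and smooth muscle and pericyte markers to 0.1497 and 0.1462%.

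Most of the guidance genes were detected. A mean of 10 or more over the 6 libraries of a fraction, the minimum for testing, was reached by 38 of the 47 genes in NonCM and 33 in CM. Another 8 in NonCM and 13 in CM had reads below that level, and Dcc, the classical netrin receptor of axons, had no read in either fraction. Next to the limit in NonCM were Sema3e inside it with a mean of 12.8 and Sema4g outside it with 9.97. In CM they were Plxnb3 inside with 14.5 and Robo2 outside with 6.72.

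Levels can be compared between genes per kilobase of exon, as means over the 6 libraries of a fraction, and only within a fraction, because the tables were scaled apart. Among the ligands, Ntn1, the founding netrin, stood first in both fractions, at 187 normalized reads per kb in NonCM and 128 in CM. Ntn4, a netrin of basement membranes, followed among the netrins at 60.6 in NonCM and 31.5 in CM. The leading semaphorins in NonCM were Sema3c at 99.96 and Sema7a, a membrane-anchored semaphorin, at 98.7 reads per kb. In CM Sema7a led with 92.7, followed by Sema6a, a transmembrane ligand of A-type plexins, with 38.1, while Sema3c stood at 13.9. Slit3 made up most of the slit level, at 67.1 reads per kb in NonCM and 7.98 in CM, ahead of Slit2 at 7.47 and 1.06.

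On the receptor side, Nrp1, a coreceptor of class 3 semaphorins and of VEGF, and Plxnd1, the endothelial receptor of Sema3e, led in NonCM at 249 and 228 reads per kb, with Plxnb2 close behind at 212. In CM the order was Plxnb2 at 194, Nrp1 at 153 and Plxnd1 at 119. Robo4, the robo of endothelial cells, exceeded the other robos at 59.6 reads per kb in NonCM and 55.5 in CM, against 9.89 and 1.17 for Robo1. Of the netrin receptors, Neo1 stood at 104 in NonCM and 122 in CM, and Unc5b, a netrin receptor of vessels, at 40.5 in NonCM and 26.1 in CM. Unc5a, Unc5c and Unc5d each lay below 1.5 reads per kb in both fractions.

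**Figure D1:**
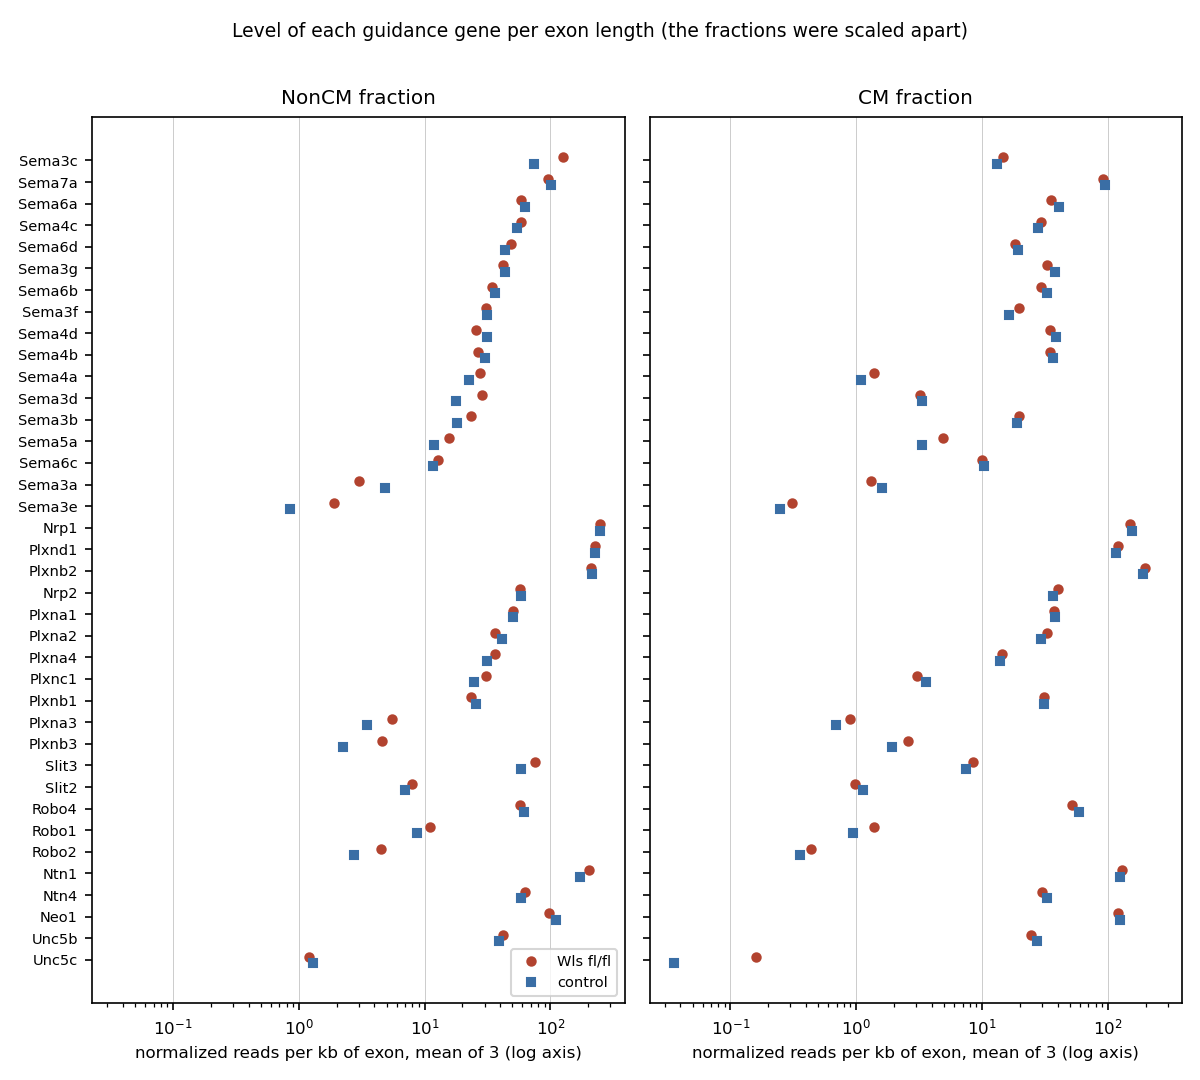
Mean normalized reads per kb of exon (log axis) of each guidance gene tested in at least 1 fraction, in NonCM (left) and CM (right), with circles for Wls fl/fl and squares for control (n = 3 each). Nrp1, Plxnd1, Plxnb2 and Ntn1 lie at the high end in both panels, and Sema3c has separated symbols in NonCM, at 125 in Wls fl/fl and 74.7 in control.

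In the NonCM fraction, 4 guidance genes rose in Wls fl/fl hearts and none fell. They were the secreted class 3 semaphorins Sema3c and Sema3d, the secreted ligand Slit3 and the slit receptor Robo2. Among the 38 tested, these 4 stand against 598 calls among all 13271 genes (4.51%), of which 328 were higher in Wls fl/fl (2.47%). The median log2 change was 0.10 over the guidance genes and 0.02 over all genes tested. On GRCm38, GENCODE M21 places the genes at chr5:17574281-17730268 (Sema3c, plus strand), chr5:12383385-12588948 (Sema3d, plus), chr11:35121224-35708507 (Slit3, plus) and chr16:73891839-74411825 (Robo2, minus), with no other gene on their exons. By family, 2 of 17 semaphorins, 0 of 9 plexins, 0 of 2 neuropilins, 1 of 2 slits, 1 of 3 robos, 0 of 2 netrins and 0 of 3 netrin receptors rose.

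Sema3c had normalized counts of 864, 920 and 898 in Wls fl/fl NonCM, against 571, 479 and 551 in control NonCM. The groups were far apart, with every Wls fl/fl library above every control library. The log2 change on the log2(value + 1) scale was 0.75 (SE 0.07, limma adjusted p = 0.00149). Sema3c also gained weight within its family, making up 18.9 ± 0.56% of the summed semaphorin level per kb in Wls fl/fl NonCM and 12.6 ± 1.95% in control NonCM (SD, n = 3 each). It is the first semaphorin by level in Wls fl/fl, at 125 reads per kb, whereas Sema7a is first in control, at 100.8.

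Sema3d had 249, 253 and 239 in Wls fl/fl NonCM, against 150, 159 and 154 in control NonCM. Replicates lay close together and the groups did not overlap. Its log2 change was 0.68 (SE 0.08, limma adjusted p = 0.00293).

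Slit3 had 458, 474 and 441 in Wls fl/fl NonCM, against 349, 374 and 347 in control NonCM, again with no overlap. Its change was smaller, at 0.36 (SE 0.07, limma adjusted p = 0.0201). Robo2 had 77.6, 73.2 and 80.7 in Wls fl/fl NonCM, against 38.8, 50.3 and 51.4 in control NonCM, a log2 change of 0.72 (SE 0.16, limma adjusted p = 0.0363). Its lowest control value, from the shallowest library, stood for 7 reads.

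The 4 calls were not equally firm. Sema3c and Sema3d were called whichever library was left out, with limma adjusted p of at most 0.0249 and 0.0369. Slit3 lost its call without control replicate 3 (limma adjusted p = 0.094), and also on leaving out any single Wls fl/fl library (0.064, 0.126 and 0.102 without replicates 1, 2 and 3). Robo2 lost its call on leaving out the same libraries (0.0877, 0.119, 0.145 and 0.202) and by DESeq2 on the recovered reads (0.12). Without any one of those libraries limma also called fewer of all genes, between 73 and 335, against 598 with all libraries. In the authors' deposited table the adjusted p was 2.93e-13 for Sema3c, 0.000242 for Sema3d, 0.0245 for Slit3 and 0.115 for Robo2. With replicates 1 and 2 only, limma called 0 guidance genes and 0 of all genes, with adjusted p = 0.191 for Sema3c, 0.219 for Sema3d, 0.406 for Slit3 and 0.457 for Robo2. On the same libraries edgeR called 27 of all genes (0.203%), of which Sema3c was 1 (adjusted p = 0.0268), and gave 0.0581 for Sema3d. The log2 changes on those libraries, 0.77, 0.70, 0.36 and 0.76 by limma, stood close to those from all 3.

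**Figure D2:**
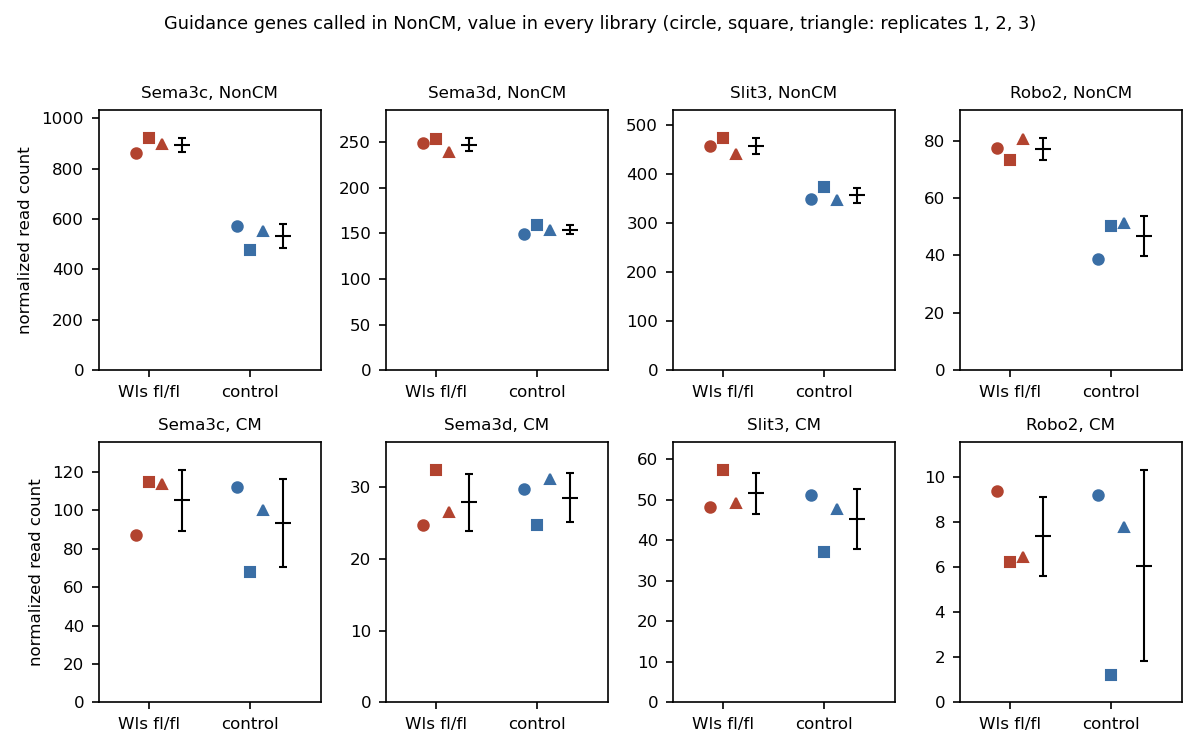
Normalized read count of Sema3c, Sema3d, Slit3 and Robo2 in every library of NonCM (upper row) and CM (lower row), with Wls fl/fl left of control, and mean and SD (n = 3) beside the points. In NonCM the Wls fl/fl points lie above the control points in all 4 panels, for example 864 to 920 against 479 to 571 for Sema3c, while in CM the genotypes overlap in all 4.

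Cell type markers moved with genotype in the same fraction. In a bulk sample, fewer cells of a type and less RNA per cell cannot be told apart. Fibroblast markers summed to between 1.36 and 1.47% of reads in Wls fl/fl NonCM and between 0.929 and 0.948% in control NonCM. Of the 10, none was at 0, 8 were called higher by limma, and their median log2 change was 0.54, with a range of 0.29 to 0.75. Cardiomyocyte markers summed to between 6.23 and 6.44% in Wls fl/fl NonCM and between 7.21 and 7.86% in control NonCM, and 10 of 14 were called lower, with a median log2 change of -0.28. Epicardial and mesothelial markers summed to between 0.0149 and 0.0167% in Wls fl/fl and between 0.00679 and 0.0135% in control, and 1 of 6 was called higher. Macrophage and monocyte markers summed to between 0.14 and 0.156% in Wls fl/fl and between 0.0999 and 0.131% in control, with 1 of the 9 tested called higher. Sums were also higher in Wls fl/fl NonCM for neutrophils (mean 0.00493% in Wls fl/fl and 0.00121% in control) and for Schwann cells and neurons (0.0047 and 0.00332%). The T, B and NK cell sum was higher too (0.00044 and 0.000211%), but none of its 7 markers reached a mean of 10 and 1 had no read. Its share in control replicate 1, the shallowest library, was 8.62e-05%. The endothelial sum was lower (0.151 and 0.161%). For each of these 8 sums the groups did not overlap and the 2-sided exact permutation p was 0.1, the smallest that 3 against 3 libraries allow. Replicate 3 resembled a mix of replicates 1 and 2 in every group. The lack of overlap and this p may therefore rest on fewer than 3 independent libraries per group. Smooth muscle and pericyte, lymphatic endothelial and red cell sums overlapped between genotypes. On replicates 1 and 2 alone the fibroblast sum was higher in Wls fl/fl by 0.475 percentage points, against 0.4855 with all libraries. On those libraries limma called 0 of all genes, so none of these marker calls holds there. The part of these markers in the changes of Sema3c, Sema3d, Slit3 and Robo2 was not tested.

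With the 4 calls included, 17 of the 38 guidance genes in NonCM had an unadjusted limma p under 0.05 (13 higher and 4 lower in Wls fl/fl), where 19.3% of all genes did. Groups did not overlap for 20 of the 38, where 26.5% of all genes had no overlap. The edgeR test on recovered reads called 10 (9 higher, 1 lower), beside 1446 of all genes (10.9%). Those 10 were the 4 above with Ntn1, Plxnb3, Plxnc1, Robo1, Sema5a and, lower, Sema4d. On replicates 1 and 2 alone these 6 further genes missed the threshold by edgeR as well (adjusted p from 0.282 for Plxnc1 to 0.522 for Sema5a).

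Ligands that missed the limma threshold in NonCM are given by library. Ntn1 had 1213, 1257 and 1337 in Wls fl/fl NonCM, against 1009, 1120 and 1125 in control NonCM, a log2 change of 0.23 (SE 0.06, limma adjusted p = 0.0785, edgeR 0.041). Sema5a, a transmembrane semaphorin with thrombospondin repeats, had 316, 255 and 303 in Wls fl/fl, against 188, 251 and 222 in control. Its groups nearly met, and the log2 change was 0.41 (limma adjusted p = 0.0997, edgeR 0.0399). Sema4d, the ligand of plexin B1, had 195, 191 and 209 in Wls fl/fl NonCM, against 244, 224 and 259 in control NonCM, a log2 change of -0.29 (limma adjusted p = 0.0959, edgeR 0.0301). Sema5a and Sema4d thus had opposite signs, each with no overlap between genotypes.

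Sema3b had 114, 109 and 113 in Wls fl/fl NonCM, against 66.5, 93.8 and 99.2 in control NonCM, a log2 change of 0.39 (limma adjusted p = 0.211), or 0.21 without control replicate 1. Sema6d, a transmembrane ligand of plexin A1, had 509, 532 and 513 in Wls fl/fl, against 471, 437 and 471 in control, a change of 0.17 (limma adjusted p = 0.155). Sema3a lay the other way, at 43.9, 41.2 and 41.1 in Wls fl/fl, against 94.2, 57.2 and 48.5 in control. Its control values were spread widely, the highest of them in the shallowest library, and its log2 change was -0.59 (SE 0.23, limma adjusted p = 0.204), or -0.32 without that library. Slit2 had 195, 212 and 199 in Wls fl/fl, against 194, 188 and 152 in control, a change of 0.19 (limma adjusted p = 0.387), or 0.08 without control replicate 3. Sema3e, the ligand of plexin D1, was fitted at 1.79 (SE 0.88, limma adjusted p = 0.31), the largest log2 change of the 38 by limma, on very low levels. It had 17.2, 16.6 and 19.4 in Wls fl/fl, against 0, 9.15 and 14.5 in control, and the control library at 0 is the shallowest one. Without that library the change was 0.58, and by edgeR on all libraries it was 0.67, below the 0.91 of Plxnb3. Its mean was 17.7 in Wls fl/fl and 7.88 in control, so it passed the minimum of 10 through Wls fl/fl. The abundant ligands Sema7a and Ntn4 overlapped between genotypes. Sema7a had 322, 304 and 329 in Wls fl/fl, against 255, 368 and 375 in control. Ntn4 had 252, 233 and 217 in Wls fl/fl, against 266, 182 and 212 in control.

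Of the plexins, Plxnc1, the receptor of Sema7a, came nearest to a call. It had 254, 260 and 253 in Wls fl/fl NonCM, against 194, 207 and 218 in control NonCM, a log2 change of 0.31 (SE 0.08, limma adjusted p = 0.0584, edgeR 0.026). Plxnb3, a receptor of Sema5a, had 31.8, 30.6 and 27.7 in Wls fl/fl, against 11.1, 19.1 and 13.8 in control, a log2 change of 1.02 (SE 0.27, limma adjusted p = 0.0647, edgeR 0.0211) at a low level. Among the plexins that pair with neuropilins, Plxna3 had 40.7, 45.2 and 44.1 in Wls fl/fl, against 16.6, 27.5 and 37.7 in control (log2 change 0.72, limma adjusted p = 0.196, and 0.42 without control replicate 1). Plxna4, whose exons overlap a gene on the other strand, had 513, 498 and 522 in Wls fl/fl, against 455, 381 and 492 in control (0.22, limma adjusted p = 0.24, and 0.11 without control replicate 2). Plxna2 had 635, 610 and 635 in Wls fl/fl, against 771, 684 and 684 in control (-0.18, limma adjusted p = 0.155). These 3 plexins of the A group did not overlap between genotypes, had both signs, and missed the threshold.

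The receptors that stood first and second by level in NonCM, Nrp1 and Plxnd1, overlapped between genotypes. Nrp1 had 2356, 2529 and 2407 in Wls fl/fl NonCM, against 2472, 2429 and 2436 in control NonCM, a log2 change of -0.01 (SE 0.05). Plxnd1 had 1706, 1605 and 1696 in Wls fl/fl, against 1790, 1495 and 1698 in control, a change of 0.01 (SE 0.07). Robo1, a slit receptor of many cell types, had 194, 163 and 194 in Wls fl/fl, against 161, 129 and 140 in control, a log2 change of 0.36 (SE 0.12, limma adjusted p = 0.124, edgeR 0.0159). Robo4 had 310, 317 and 292 in Wls fl/fl, against 299, 361 and 317 in control, with overlapping groups. Neo1 had 865, 862 and 803 in Wls fl/fl, against 1031, 902 and 973 in control, a log2 change of -0.20 (SE 0.06, limma adjusted p = 0.125), with no overlap. Unc5b had 248, 256 and 281 in Wls fl/fl, against 266, 220 and 251 in control, and its groups overlapped. The remaining 13 tested guidance genes had log2 changes between -0.16 and 0.29, with limma adjusted p of at least 0.275.

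**Figure D3:**
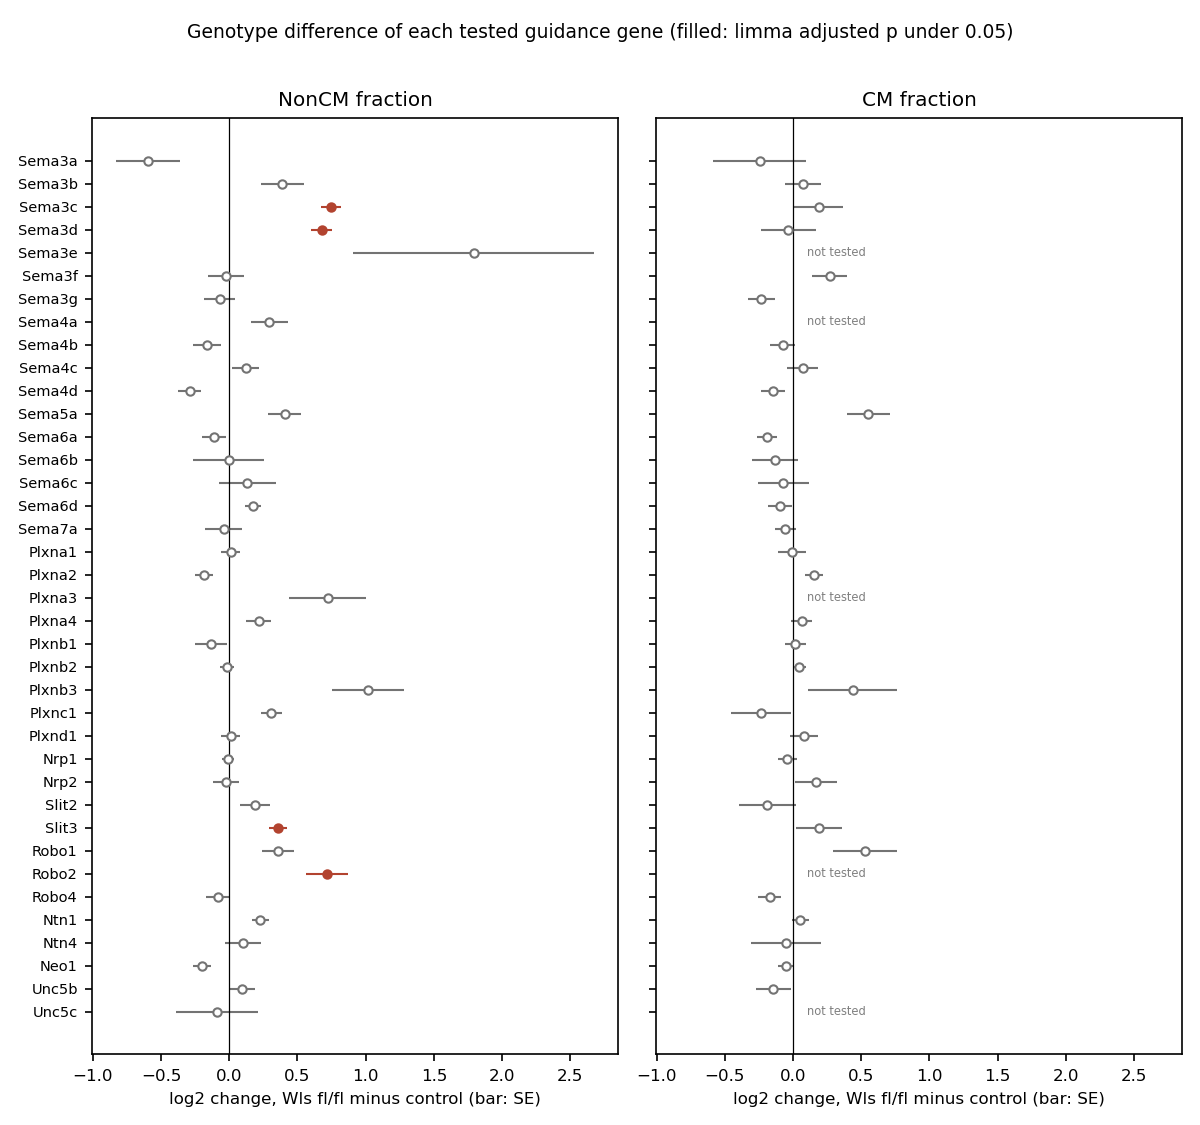
Log2 change (Wls fl/fl minus control, with SE bars) of each tested guidance gene in NonCM (left) and CM (right), filled where the limma adjusted p was under 0.05. The 4 filled points, Sema3c, Sema3d, Slit3 and Robo2, are all in NonCM at 0.36 to 0.75, and Sema3e at 1.79 has the widest bar.

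In the CM fraction no guidance gene passed the test. Limma called 0 of 33, with 11 of all 11944 genes called (0.0921%), and the lowest adjusted p of a guidance gene was 0.399. At an unadjusted limma p under 0.05 stood 5 of the 33, where 8.74% of all genes did, and 6 had groups that did not overlap, where 15% of all genes had none. The edgeR and DESeq2 tests also called 0, beside 12 and 24 of all genes. At an unadjusted p under 0.05 they had 7 and 1 of the 33, beside 1053 and 375 of all 11944 genes. The median log2 change of the 33 was -0.03, and 0.02 on replicates 1 and 2 alone.

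Sema5a had the lowest p in CM, with 96.3, 81.3 and 97.1 in Wls fl/fl CM, against 52.1, 59.2 and 76.9 in control CM. The groups did not overlap, and the log2 change of 0.55 (SE 0.16, limma adjusted p = 0.399) had the sign it had in NonCM. Robo1 had 19.97, 22.9 and 25.9 in Wls fl/fl CM, against 14.3, 14.8 and 17.5 in control CM, a log2 change of 0.53 (SE 0.23, limma adjusted p = 0.56). Plxna2 had 584, 546 and 559 in Wls fl/fl CM, against 474, 531 and 513 in control CM, a change of 0.15 (limma adjusted p = 0.539), opposite in sign to NonCM. Sema6a had 298, 325 and 312 in Wls fl/fl CM, against 376, 339 and 353 in control CM, a change of -0.19 (limma adjusted p = 0.481). Sema3g, a class 3 semaphorin of endothelial cells, had 152, 133 and 160 in Wls fl/fl CM, against 162, 178 and 182 in control CM, a change of -0.23 (limma adjusted p = 0.55).

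The genes that rose in NonCM overlapped between genotypes in CM. Sema3c had 86.9, 115 and 114 in Wls fl/fl CM, against 112, 67.9 and 100.2 in control CM. Sema3d had 24.7, 32.3 and 26.5 in Wls fl/fl CM, against 29.6, 24.7 and 31.1 in control CM. Slit3 had 48.2, 57.3 and 49.2 in Wls fl/fl CM, against 51.1, 37.0 and 47.7 in control CM. Their log2 changes were 0.19, -0.03 and 0.19, and those of Sema3c and Sema3d crossed 0 with 1 library left out (-0.02 to 0.34 and -0.14 to 0.05). Robo2 had 42 reads over the 6 CM libraries and was not tested.

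The most abundant guidance genes in CM also overlapped between genotypes. Plxnb2 had 1502, 1513 and 1544 in Wls fl/fl CM, against 1500, 1419 and 1503 in control CM, a log2 change of 0.04. Nrp1 had 1406, 1570 and 1458 in Wls fl/fl CM, against 1675, 1382 and 1523 in control CM, a change of -0.04. Neo1 had 1038, 1038 and 1049 in Wls fl/fl CM, against 1137, 1011 and 1098 in control CM, a change of -0.05. Ntn1 had 762, 843 and 841 in Wls fl/fl CM, against 746, 826 and 784 in control CM, a change of 0.05. For each of these 4 genes the groups overlapped and the change was smaller than its SE. Sema7a had 287, 304 and 308 in Wls fl/fl CM, against 290, 316 and 329 in control CM. Robo4 had 280, 282 and 267 in Wls fl/fl CM, against 279, 338 and 320 in control CM, a change of -0.17 (limma adjusted p = 0.589). Both overlapped between genotypes. Unc5b had 161, 132 and 171 in Wls fl/fl CM, against 187, 143 and 184 in control CM. Slit2 had 23.5, 28.1 and 23.3 in Wls fl/fl CM, against 27.6, 24.7 and 34.1 in control CM. Ntn4 was the most scattered, with 125, 96.9 and 115 in Wls fl/fl CM, against 174, 67.9 and 130 in control CM.

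Whether the genotype change differed between NonCM and CM was asked with the interaction of fraction and genotype, fitted by edgeR on recovered reads of all 12 libraries. It called 0 of 37 guidance genes and 183 of 12857 genes (1.42%), so a change particular to 1 fraction was not shown for any of the 37. At an unadjusted p under 0.05 stood 5 of the 37, and 1821 of the 12857. Plxna2 came nearest, with a genotype change lower in NonCM than in CM by 0.31 on the log2 scale (interaction -0.31, edgeR adjusted p = 0.0704). Sema3d and Sema3c followed with changes higher in NonCM, with interactions of 0.72 (edgeR adjusted p = 0.0818) and 0.60 (0.0916). DESeq2 gave an adjusted p to only 13 of the 37, and not to Sema3d, Slit3 or Robo2. Of the 13, Sema3c and Plxna2 passed (DESeq2 adjusted p = 0.0232 and 0.0495), beside 371 of the 3305 of all genes given one. By edgeR Sema3c passed without CM control replicate 2 (adjusted p = 0.0302) and without a filter on low values (0.00854). For Slit3 and Robo2 the interaction was 0.18 and 0.46 (edgeR adjusted p = 0.69 and 0.739).

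More guidance genes were called between the fractions than between the genotypes. In control hearts, the same joint edgeR fit called 21 of 37 higher in NonCM than in CM (28.8% of all genes were) and 6 lower (28.4% of all genes were). Of the 37, Unc5c, Sema4a, Robo2 and Plxna3 had a mean under 10 in CM (1.86, 6.7, 6.72 and 6.23) and entered only through NonCM, so that they lay higher in NonCM follows from the filter. Among the 33 with a mean of 10 or more in each fraction, edgeR called 18 higher and 4 lower, where 27.4% and 27.3% of the 11820 such genes were. Both fractions came from each mouse, per the series, but the labels do not say which libraries share one, so the fit takes them as independent. Slit2, Slit3, Robo1, Robo2, Sema3c, Sema3d, Sema4a and Plxnc1 lay on the NonCM side, and Plxnb1, Sema4d, Sema4b and Neo1 on the CM side. The 2 endothelial receptors Robo4 and Plxnd1 parted, with log2 ratios of -0.22 and 0.64. In the same fit the median log2 ratio of NonCM over CM was 4.36 for macrophage and monocyte and 2.84 for fibroblast markers. It was 1.78 for epicardial and mesothelial, 0.12 for endothelial, 0.22 for smooth muscle and pericyte, and -0.87 for cardiomyocyte markers. Summed shares of all reads, without the scaling of that fit, gave 4.53, 3.07, 2.02, 0.46, 0.03 and -0.56 in that order. They are not on the scale of the gene ratios. The part of each cell type in a gene's ratio was not tested.

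Values here are CPM, reads scaled to a common library total by the joint fit, in control libraries. Unc5c, Sema4a and Robo2 entered the fit only through NonCM, so for them the direction follows from the filter and only sizes are described. Unc5c, a netrin receptor, had 2.35, 4.22 and 3.81 CPM in NonCM, against 0.355, 0 and 0 CPM in CM. These were 81 and 2 reads, a ratio of shares of 37.4 (95% exact Clopper-Pearson interval 10.01 to 314, counting error only), and its exons overlap a gene on the other strand. Sema4a, a semaphorin of immune cells, had 15.7, 17.8 and 17.3 CPM in NonCM, against 1.06, 1.49 and 0.505 CPM in CM, which were 362 and 16 reads and a ratio of 20.9 (95% exact interval 12.7 to 36.9). Robo1 had 22.7, 17.8 and 19.3 CPM in NonCM, against 2.48, 2.55 and 3.03 CPM in CM, a log2 ratio of 2.81 (edgeR adjusted p = 6.2e-11). Slit3 had 49.4, 51.8 and 48.0 CPM in NonCM, against 8.86, 6.36 and 8.25 CPM in CM, a log2 ratio of 2.65 (edgeR adjusted p = 9.9e-14). Ligand and receptor thus lay on the same side, by similar ratios. Robo2 had 5.49, 6.96 and 7.11 CPM in NonCM, against 1.6, 0.212 and 1.35 CPM in CM, a log2 ratio of 2.63. Plxnc1 had 27.4, 28.7 and 30.1 CPM in NonCM, against 6.21, 4.88 and 4.38 CPM in CM, a log2 ratio of 2.50. Slit2, Sema3c and Sema3d had log2 ratios of 2.24, 2.14 and 2.12. Robo1, Slit3, Plxnc1, Slit2, Sema3c and Sema3d had a mean of 10 or more in each fraction. For these genes NonCM and CM libraries did not overlap, and the edgeR adjusted p on replicates 1 and 2 alone was at most 2.64e-06.

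On the other side, Plxnb1 had 40.8, 28.9 and 33.9 CPM in NonCM, against 55.5, 47.9 and 50.2 CPM in CM, a log2 ratio of -0.67 (edgeR adjusted p = 3.6e-06). Its exons overlap a gene on the other strand. Its ligand Sema4d had 34.5, 31.0 and 35.9 CPM in NonCM, against 57.6, 49.2 and 47.1 CPM in CM, a log2 ratio of -0.61 (edgeR adjusted p = 1.13e-05). Sema4b, a transmembrane semaphorin, had 23.5, 21.3 and 26.1 CPM in NonCM, against 34.4, 33.3 and 39.4 CPM in CM, a log2 ratio of -0.59. Neo1 had 146, 125 and 135 CPM in NonCM, against 197, 174 and 190 CPM in CM, a log2 ratio of -0.50. In the same fit the 14 cardiomyocyte markers ran from -0.93 to -0.39, with a median of -0.87. These 4 ratios lay within that range and above that median. Robo4 and Plxnb2, also called lower, had small ratios of -0.22 and -0.16. They lost the call on replicates 1 and 2 alone (edgeR adjusted p = 0.358 and 0.324), without NonCM control replicate 3 (0.187 and 0.103) and without CM control replicate 3 (0.0937 and 0.0623). Robo4 also lost it without CM control replicate 2 (0.119) and by DESeq2 (0.106). Both lost it with no filter (edgeR adjusted p = 0.0782 for Robo4 and 0.105 for Plxnb2), with a mean of 50 or more (0.108 for each) and with a mean of 10 or more in each fraction (0.0824 and 0.073).

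**Figure D4:**
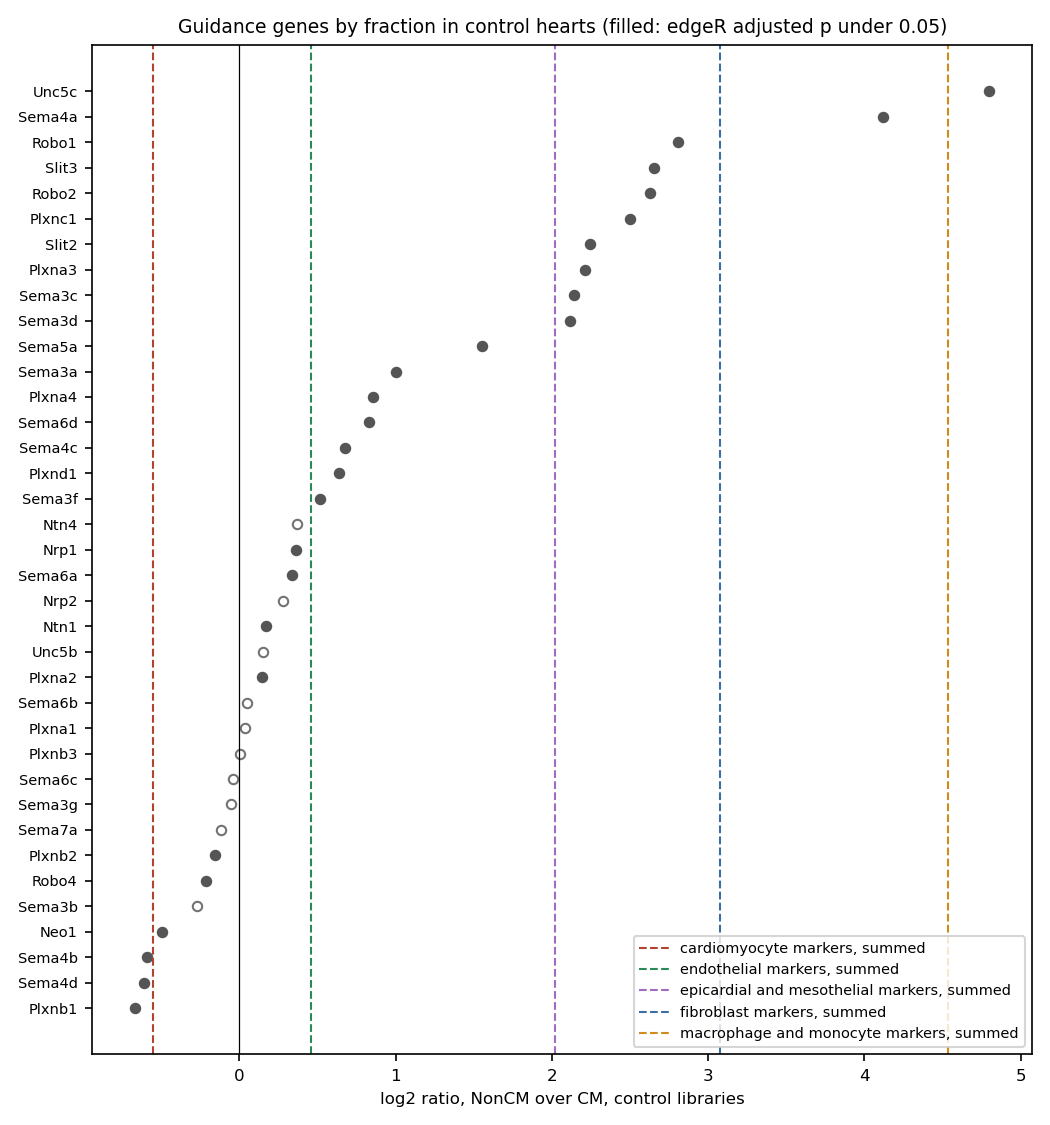
Log2 ratio of NonCM over CM in control libraries for the 37 guidance genes of the joint fit, filled where the edgeR adjusted p was under 0.05, with dashed lines at the ratios of summed cell type markers. Genes run from Unc5c at 4.80 down to Plxnb1 at -0.67. The lines are ratios of shares of all reads, without the scaling of the joint fit, so they are not on the scale of the points.

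The signal of guidance receptors runs through a wider set of cytoplasmic effectors and coreceptors, of which 62 were listed. In NonCM 55 were tested, of which 2 rose and 2 fell in Wls fl/fl hearts, where 4.51% of all genes were called. The log2 change was above 0 for 43 of the 55 (78.2%), where it was for 53.2% of all genes. Its median was 0.13, against 0.02 over all genes. The edgeR test called 9 higher and 3 lower, where it called 10.9% of all genes. Dpysl2, a collapsin response mediator downstream of Sema3a, averaged 2353 ± 63.2 in Wls fl/fl NonCM and 1925 ± 73.7 in control NonCM (SD, n = 3 each), a log2 change of 0.29 (limma adjusted p = 0.0155). Flrt2, a ligand of Unc5 receptors, averaged 299 ± 21.8 in Wls fl/fl and 221 ± 4.25 in control, a log2 change of 0.43 (limma adjusted p = 0.0196). Enah, an actin regulator of the Ena/VASP family, averaged 895 ± 18.7 in Wls fl/fl and 1084 ± 28.6 in control, a log2 change of -0.28 (limma adjusted p = 0.0195). Mical3, of the MICAL oxidases that act on actin, averaged 725 ± 26.4 in Wls fl/fl and 869 ± 20.01 in control, a log2 change of -0.26 (limma adjusted p = 0.0304). On replicates 1 and 2 alone all 4 missed the threshold (limma adjusted p from 0.373 to 0.508). In CM, 0 of 46 were called by limma, edgeR or DESeq2 (1 at an unadjusted limma p under 0.05), the lowest adjusted p being that of Ablim1 (log2 change 0.22, limma adjusted p = 0.484), followed by Rgma (-0.24, 0.615). Of the 22 ephrins and Eph receptors, the remaining classical guidance family, limma called 0 of 16 tested in NonCM (4.51% of all genes) and 0 of 12 in CM (0.0921%). At an unadjusted limma p under 0.05 stood 2 in NonCM, 1 higher and 1 lower, where 19.3% of all genes did. In CM 4 did, Efnb1, Efnb3, Epha7 and Ephb3, all lower in Wls fl/fl, where 8.74% of all genes did. In NonCM the edgeR test called 2 of these 16, both lower, where it called 10.9% of all genes. They were Efnb3 (log2 change by limma -0.31, edgeR adjusted p = 0.00434) and Efnb1 (-0.19, 0.0274). In CM it called 0. On replicates 1 and 2 alone the limma adjusted p was 0.591 for Efnb3 and 0.674 for Efnb1.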

How the data were processed

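RNA of 12 libraries was analysed, grouped by the genotype and cell fraction in the labels. STAR, DESeq2 and build mm10 are named, without versions, per the submitters' processing notes. Which annotation and counter were used, and whether strand was, is not given in the sources used here. Per the file headers, the deposited tables, 1 per fraction, hold a signal value per library, which is the authors' normalized read count, with their log2 fold changes and their p-values. All values (100%) were whole multiples of a library's step, so reads were recovered. A DESeq2 fit to them differed from the deposited log2 changes by at most 4.17e-08 in CM and 4.79e-08 in NonCM. Dates had replaced 25 symbols per table, which therefore have no name.

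Within each fraction, limma 3.58.1 (R 4.3.3, eBayes with trend) was fitted to log2(value + 1) of genes with a mean of 10 or more (contrast Wls fl/fl minus control), using Benjamini-Hochberg adjustment over all genes tested and a threshold of 0.05. Fractions were compared, and the interaction tested, by edgeR 4.0.16 (quasi-likelihood, TMM) on recovered reads of 12 libraries. DESeq2 1.42.0, edgeR, other scalings, filters and pseudocounts, and libraries left out were alternatives. The edgeR fit and the marker sums on replicates 1 and 2 alone, and the mean of 10 in each fraction, were chosen after seeing the data. Symbols were matched to GENCODE M21 (GRCm38) for exon length and position; all 47 matched, and 38 were in the RefSeq promoter table.

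Values by library are given for called genes, for genes with an unadjusted limma p under 0.05 and no overlap of groups, and for the 2 highest per length of each family. In the fraction comparison the 6 largest rises and falls among called genes are named. Sema3e and the ephrins and Eph receptors were named after their values were seen. The genes and lists were chosen with earlier results of these data known. The series states 3 hearts per condition, but replicate 3 resembles a mixture of the others, so p-values measure only the spread between these libraries.

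Counts with known changes were simulated. The limma test for NonCM (13114 genes) found 38 of 99 genes with a log2 change of 0.5 and 80 of 97 with 1. Of its 120 calls, 2 were false, whereas 17 of the 161 calls by edgeR in NonCM were false. The limma test for CM (11826 genes) found 53 of 100 and 83 of 95, and the edgeR interaction (12857 genes) found 35 of 100 and 69 of 100. Simulated libraries were drawn independently, whereas replicate 3 here resembled a mix of replicates 1 and 2. The simulation therefore does not give the recovery for such libraries.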

Additional observations from a re-analysis of the deposited data

How the results depend on the processing

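No called gene changed sign under any alternative run. Uncalled changes did: with 1 library left out, 13 of 33 in CM and 11 of 38 in NonCM crossed 0. The largest of these log2 changes were 0.24 in CM and 0.13 in NonCM in absolute size. Over the single genes tracked, 571 alternatives left a gene on its side of the threshold, called or not, 19 gained a call and 30 lost one. The count of guidance genes higher in Wls fl/fl NonCM, 4 by limma, was 9 by edgeR, 8 at an adjusted p of 0.1, 0 by limma on replicates 1 and 2 alone and 1 by edgeR on those. It ranged from 2 to 9 with 1 library left out. The count lower, 0 by limma, was 1 by edgeR (Sema4d) and at an adjusted p of 0.1, and ranged from 0 to 3 with 1 library left out, the highest of each range being without NonCM control replicate 1, the shallowest library, which left 1621 of all genes called. Without control replicate 3 or any Wls fl/fl library, 2 remained, Sema3c and Sema3d. Calls among all genes fell in the same settings, from 598 with all libraries to between 73 and 335. The lowest was without Wls fl/fl replicate 3 and the highest without Wls fl/fl replicate 1. The loss of Slit3 and Robo2 there thus came with a general loss of calls. The cause of these losses was not tested. The interaction count, 0 by edgeR, was 1 with a larger change in NonCM by DESeq2, with no filter, and at most 1 (0 to 1) with 1 library left out, and 1 with a smaller change by DESeq2. The CM counts of 0 stayed 0 under all alternatives run, and the fraction counts ranged from 17 to 25 higher and 4 to 7 lower in NonCM. TMM scaling moved the median log2 change of all genes by -0.0015 in CM and -0.015 in NonCM. No paired analysis was possible because the labels do not say which CM and NonCM libraries share a mouse, and genotypes share none. Depth limits the low genes: 1 read equals 5.54 in NonCM control replicate 1, so Sema3e, Plxnb3, Plxna3 and Robo2 rest there on 0 to 7 reads.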
